A study of Mus musculus with 36 samples.

Results

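Coagulation and plasminogen activation were followed through 9 genes in the lungs of mice breathing ozone. The genes were *F3*, *F10* and *Tfpi* of the tissue factor pathway, *Thbd* and *Procr* of the protein C pathway, and *Plat*, *Plau*, *Plaur* and *Clec3b* of the plasminogen system. Their members on the array were all probe sets to which the platform annotation gives 1 symbol, that of one of these genes, which came to 16 of 45037 probe sets tested, or 9 of 18193 genes. *F3*, *Plaur*, *Thbd*, *Procr* and *Clec3b* each have 1 probe set, *Plat* and *Plau* have 2 each, *F10* has 3 and *Tfpi* has 4. Total RNA of the whole left lung of 36 male mice, 7 to 13 weeks old, was measured on Affymetrix mouse whole-genome arrays, with 1 mouse on each array and 3 mice in each of 12 groups. The groups were wild-type (WT) B6129SF1/J mice, *Notch3-/-* mice (B6;129S1-Notch3tm1Grid/J) and *Notch4-/-* mice (B6;129S1-Notch4tm1Grid/J), each kept in filtered air or made to inhale 0.3 ppm ozone without a break, over the whole body, during 6 hr, 24 hr or 48 hr. Each genotype had a single air group, of which the labels give no duration, so its comparisons with the ozone groups share the same 3 air mice. The knockouts are present in every cell, the 2 knockout lines are on a B6;129S1 background and the WT mice are F1 hybrids, so that knockout and strain background cannot be told apart. A level is the log2 signal of a probe set relative to its median over the 36 arrays, and levels are therefore not compared between genes.

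Tissue factor, the product of *F3*, is a membrane receptor that binds factor VII and starts coagulation by activating factor X (*F10*), which in turn makes thrombin, and tissue factor pathway inhibitor (*Tfpi*) shuts this step off. Thrombin bound to thrombomodulin (*Thbd*) on the endothelium activates protein C, an anticoagulant, and the endothelial protein C receptor (*Procr*) presents protein C to that complex. Fibrin is dissolved by plasmin, which tissue-type (*Plat*) and urokinase-type (*Plau*) plasminogen activators release from plasminogen. The urokinase receptor (*Plaur*) holds *Plau* at the cell surface, and tetranectin (*Clec3b*) binds plasminogen. In injured lung these systems govern fibrin in the airspaces and vessels.

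The 250 bases before the annotated start of 4 of these genes are shown because *F3*, *Plaur* and *F10* were higher after ozone and *Procr* had the largest genotype difference. They are RefSeq sequences of build GRCm38.p6, which held 6 entries for 5 of the 9 genes (*Tfpi*, with 2 entries, is not shown). *F3* lies at chr3:121723287-121723536, *Plaur* at chr7:24462233-24462482, *Procr* at chr2:155750967-155751216 and *F10* at chr8:13037058-13037307, all on the plus strand. Capitals mark matches, searched on both strands. The letters of an AP-1 site, bound by Fos and Jun proteins, were TGANTCA. Those of a site of the kind bound by nuclear factor kappa B were GGNNTTTCC. A GC box, bound by Sp1, was searched as GGGCGG and a TATA box, near which transcription starts, as TATAAA. The core of a hypoxia response element was ACGTG, and that of a site for RBPJ, the DNA-binding partner of the Notch receptors, was TGGGAA.
F3: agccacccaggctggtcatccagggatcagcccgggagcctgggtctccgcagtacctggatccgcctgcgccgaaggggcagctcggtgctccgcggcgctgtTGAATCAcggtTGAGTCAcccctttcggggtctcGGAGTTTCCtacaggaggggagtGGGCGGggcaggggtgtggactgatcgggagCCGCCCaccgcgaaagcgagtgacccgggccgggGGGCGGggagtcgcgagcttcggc
Plaur: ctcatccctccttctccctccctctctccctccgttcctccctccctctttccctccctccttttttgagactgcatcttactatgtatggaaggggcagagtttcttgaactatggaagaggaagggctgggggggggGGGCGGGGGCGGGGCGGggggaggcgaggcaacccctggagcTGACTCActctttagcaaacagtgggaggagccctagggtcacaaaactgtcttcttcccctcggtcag
Procr: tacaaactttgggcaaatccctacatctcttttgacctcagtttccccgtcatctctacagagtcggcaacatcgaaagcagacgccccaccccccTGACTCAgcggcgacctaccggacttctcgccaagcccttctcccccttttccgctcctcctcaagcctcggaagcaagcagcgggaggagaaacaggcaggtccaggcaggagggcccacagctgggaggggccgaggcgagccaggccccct
F10: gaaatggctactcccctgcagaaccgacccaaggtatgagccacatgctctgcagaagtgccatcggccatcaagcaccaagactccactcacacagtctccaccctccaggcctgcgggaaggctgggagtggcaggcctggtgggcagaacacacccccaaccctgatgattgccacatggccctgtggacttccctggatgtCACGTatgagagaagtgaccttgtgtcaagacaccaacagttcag
The *F3* window held 2 AP-1 matches, at -146 and -135 from the start site, 1 kappa-B-like match at -112 and 3 GC boxes. The *Plaur* window held 1 AP-1 match at -69 and 3 GC boxes, the last 2 of which share a letter. The *Procr* window held 1 AP-1 match, at -154, and the *F10* window only 1 hypoxia core, at -45. The RBPJ letters were in none of these 4 windows. Of the 2 *Tfpi* windows not shown, 1 held them at -76, and also the TATA letters at -127. Of 32851 mouse promoter windows of this length, 6.75% hold the AP-1 letters, 4.93% the kappa-B-like letters, 32.7% a GC box, 16.6% the hypoxia core, 12.4% the TATA letters and 21.6% the RBPJ letters, and a match describes the letters only.

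The targeted gene was lower in its knockout line by 4 of 5 probe sets. Levels of the *Notch3* probe set 1421965_s_at ran from -4.51 to -3.13 in 12 *Notch3-/-* mice and from -0.53 to 0.60 in 12 WT mice, and those of 1421964_at from -2.43 to -1.71 and from -0.37 to 0.88. Those of the *Notch4* probe set 1449146_at ran from -4.31 to -1.40 in 12 *Notch4-/-* mice and from -0.38 to 0.58 in WT, and the 2 least reduced were *Notch4-/-* air replicates 1 and 2. Of the other *Notch4* probe sets, 1456263_at ran from -0.82 to -0.19 in *Notch4-/-* and from -0.14 to 0.58 in WT, while 1436901_at, with -0.23 to 0.16 and -0.31 to 0.25, was not lower, and where it lies relative to the deleted part was not checked. Results that rest on these mice are given below with and without both of them where a call changes.

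After ozone *F3*, *F10* and *Plaur* were higher and *Clec3b* and *Thbd* lower, and 1 probe set each of *Plau* and *Plat* was higher and 1 of *Tfpi* lower, nearly all at 24 or 48 hr. As the mean over the 3 genotypes, 10 of the 16 probe sets (8 of the 9 genes) passed limma's test at an adjusted p under 0.05 at 48 hr, 7 higher and 3 lower, where 10.7% of all probe sets passed. At 24 hr 4 passed, all higher, with 5.29% of all probe sets, and at 6 hr 1 passed, lower, with 2.9%. The median difference of the 16 at 48 hr was 0.06 log2, and that of all probe sets was -0.01. Only *Procr* had no probe set past the test at any of these times, with 0.16 log2 at 48 hr (95% interval -0.05 to 0.37).

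The 2 successive steps in time were also compared. From 6 to 24 hr 8 member probe sets passed, 7 higher and 1 lower, with 12.7% of all probe sets, and from 24 to 48 hr 4 passed, 2 higher and 2 lower, with 6.71%. Those higher at 24 than at 6 hr were *F3* (0.67 log2, SE 0.11, adjusted p = 0.00022), *Plaur*, *Plat* 1415806_at, both probe sets of *Plau* and 2 of *F10*. *Clec3b* was lower (-0.31, adjusted p = 0.038), a call lost without replicate 1 or 2 of the 6 or 24 hr group of either knockout line, any WT mouse at 24 hr or WT 6 hr replicate 1 or 3 (adjusted p between 0.05 and 0.095). Those that moved on between 24 and 48 hr were the same 2 probe sets of *F10*, higher, and *Clec3b* and *Thbd*, lower. These 2 comparisons do not use the air mice.

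**Figure D1:**
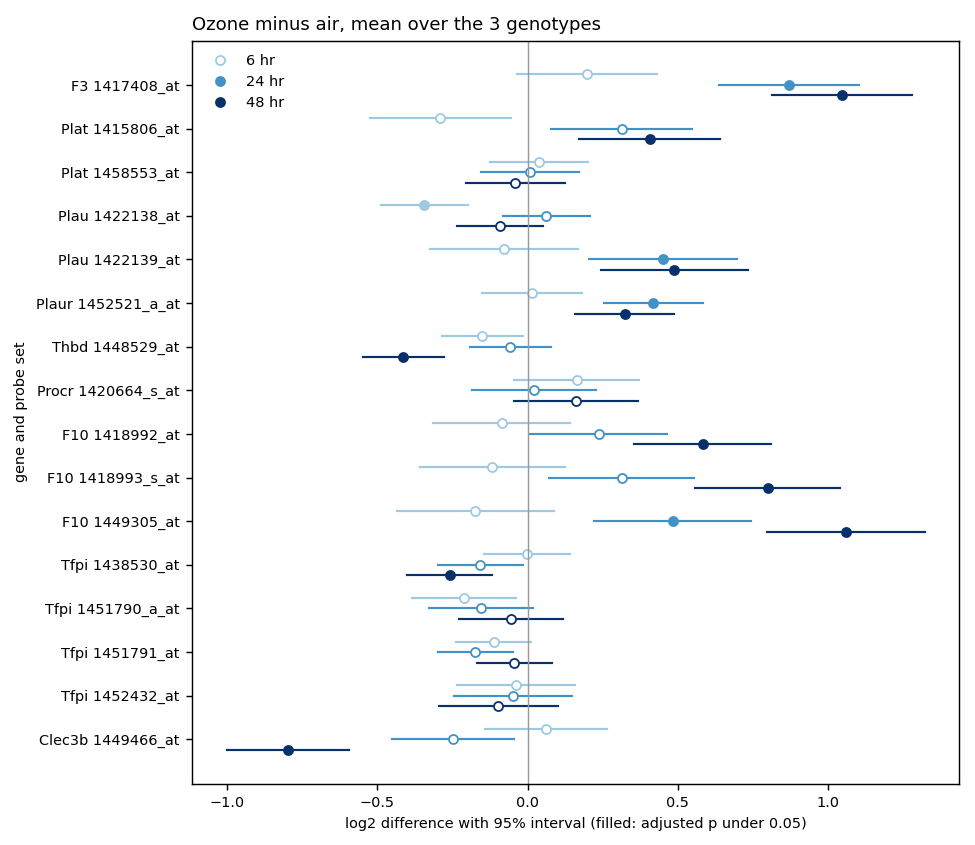
Log2 difference between ozone and air, as the mean over the 3 genotypes, for each member probe set at 6, 24 and 48 hr, with the 95% interval of the limma fit over 36 arrays. Filled circles have an adjusted p under 0.05. *F3* and *F10* 1449305_at lie farthest to the right at 48 hr (1.04 and 1.06) and *Clec3b* farthest to the left (-0.80).

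*F3*, the trigger of coagulation, was about doubled by 48 hr of ozone. In WT mice its levels were -0.34, -0.62 and -0.88 after air, -0.23, -0.36 and -0.72 at 6 hr, 0.08, 0.37 and 0.50 at 24 hr, and 0.99, 0.77 and 0.64 at 48 hr. In *Notch3-/-* mice they were -0.39, -0.52 and -0.43 after air, 0.17, -0.13 and -0.44 at 6 hr, 0.46, 0.61 and 0.44 at 24 hr, and 0.22, 0.55 and 0.21 at 48 hr. In *Notch4-/-* mice they were -0.33, -0.08 and -0.94 after air, -0.26, -0.33 and -0.46 at 6 hr, 0.14, 0.77 and -0.09 at 24 hr, and 0.49, 0.51 and 0.48 at 48 hr. In every genotype all 48 hr mice were above all air mice, and so were all 24 hr mice of WT and *Notch3-/-*, whereas 1 *Notch4-/-* mouse at 24 hr was at the level of the highest air mouse. Over the genotypes *F3* rose 1.83-fold at 24 hr (0.87 log2, SE 0.11, adjusted p = 1.2e-05) and 2.06-fold at 48 hr (1.04 log2, SE 0.11, adjusted p = 1.9e-07), in limma with Benjamini-Hochberg adjustment, and at 6 hr the difference was 0.20 (adjusted p = 0.35).

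Within genotypes *F3* passed at 48 hr in WT (1.41 log2, SE 0.20, adjusted p = 8.2e-05), in *Notch4-/-* (0.94, adjusted p = 0.0095) and in *Notch3-/-* (0.78, adjusted p = 0.027). At 24 hr it passed in *Notch3-/-* (0.95, adjusted p = 0.0083), while WT with 0.93 (adjusted p = 0.052) and *Notch4-/-* with 0.72 (adjusted p = 0.058) did not pass. Without *Notch4-/-* air replicates 1 and 2 the *Notch4-/-* difference at 24 hr was 1.21 (adjusted p = 0.0057), and it also passed without air replicate 2 alone (0.91, adjusted p = 0.016) or 24 hr replicate 3 (0.91, adjusted p = 0.038). The WT difference at 24 hr passed without air replicate 1 (1.07, adjusted p = 0.048). The *Notch3-/-* 48 hr call was lost without air replicate 1 (adjusted p = 0.078), 2 (adjusted p = 0.11) or 3 (adjusted p = 0.055), or without 48 hr replicate 1 (adjusted p = 0.058) or 2 (adjusted p = 0.17). The *Notch4-/-* 48 hr call was lost without air replicate 3, the lowest of its group (0.70, adjusted p = 0.11), and held without air replicates 1 and 2 (1.43, adjusted p = 0.0018). The WT 48 hr call held without any 1 mouse.

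*F10* codes for the protease that tissue factor activates, and all 3 of its probe sets were higher at 48 hr. For 1449305_at the WT levels were -0.54, 0.03 and 0.50 after air, -0.13, 0.06 and -0.23 at 6 hr, 0.32, 0.69 and 0.62 at 24 hr, and 1.12, 1.19 and 1.18 at 48 hr. The *Notch3-/-* levels were -0.68, -0.88 and -0.32 after air, -0.69, -0.37 and -0.85 at 6 hr, 0.17, 0.03 and 0.15 at 24 hr, and 0.17, 0.87 and 0.23 at 48 hr. The *Notch4-/-* levels were -0.80, -0.22 and -0.75 after air, -1.16, -0.89 and -0.96 at 6 hr, -0.94, -0.32 and -0.03 at 24 hr, and 0.44, 0.39 and 0.28 at 48 hr. All 48 hr mice were above all air mice of their genotype, and the 3 WT mice at 48 hr were the highest of all 36. Over the genotypes 1449305_at rose 2.08-fold at 48 hr (1.06 log2, SE 0.13, adjusted p = 9.4e-07), 1418993_s_at rose by 0.80 (adjusted p = 1.8e-05) and 1418992_at by 0.58 (adjusted p = 0.00054).

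At 24 hr only 1449305_at of the 3 *F10* probe sets passed over the genotypes (0.48 log2, adjusted p = 0.024). That call was lost without any one of *Notch3-/-* air replicate 2, *Notch3-/-* 24 hr replicate 1, *Notch4-/-* air replicates 1 or 3, *Notch4-/-* 24 hr replicate 3, WT air replicate 1 or WT 24 hr replicate 2, with adjusted p between 0.05 and 0.065. Within genotypes at 48 hr 1449305_at passed in WT (1.17, adjusted p = 0.0025), *Notch3-/-* (1.05, adjusted p = 0.0061) and *Notch4-/-* (0.96, adjusted p = 0.019). The *Notch3-/-* call was lost without air replicate 2 (adjusted p = 0.057) or 48 hr replicate 2 (0.83, adjusted p = 0.085). The *Notch4-/-* call was lost without air replicate 1 (adjusted p = 0.11) or 3 (adjusted p = 0.12) or 48 hr replicate 1 (adjusted p = 0.07) or 2 (adjusted p = 0.066), and without air replicates 1 and 2 together it was 1.12 (adjusted p = 0.058).

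The other 2 *F10* probe sets passed within some genotypes. At 48 hr 1418993_s_at passed in WT (0.91, adjusted p = 0.012) and *Notch4-/-* (0.80, adjusted p = 0.036), and 1418992_at in *Notch3-/-* (0.73, adjusted p = 0.037). In that *Notch3-/-* group the 1418992_at levels were 0.20, 1.28 and 0.33, and without replicate 2, the highest of all 36, the difference was 0.39 (adjusted p = 0.36). The call was also lost without air replicate 1 (adjusted p = 0.15) or 2 (adjusted p = 0.13). The WT call of 1418993_s_at was lost without air replicate 1, the lowest of its group at -0.82 (0.62, adjusted p = 0.15), or 48 hr replicate 2 (adjusted p = 0.063). The *Notch4-/-* call of 1418993_s_at was lost without air replicate 1 (adjusted p = 0.084) or 3 (adjusted p = 0.16), without 48 hr replicate 2 (adjusted p = 0.14) or 3 (adjusted p = 0.097), and without air replicates 1 and 2 together (adjusted p = 0.082). In *Notch3-/-* 1418993_s_at had 0.69 (adjusted p = 0.072), which passed without air replicate 1 (0.86, adjusted p = 0.045).

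*Tfpi*, the inhibitor of the tissue factor complex, had 1 of 4 probe sets past the test. Probe set 1438530_at in WT, *Notch3-/-* and *Notch4-/-* ranged from -0.19 to 0.24 over the 9 air mice and from -0.35 to -0.06 over the 9 mice at 48 hr, and it fell by 0.26 (SE 0.07, adjusted p = 0.013). The WT and *Notch3-/-* mice at 48 hr were below all air mice of their genotype, and the *Notch4-/-* groups overlapped. The other probe sets differed by -0.10 (1452432_at, adjusted p = 0.62), -0.05 (1451790_a_at, adjusted p = 0.78) and -0.04 (1451791_at, adjusted p = 0.74) at 48 hr. All 4 values were below 0, and the differences between probe sets were not tested.

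**Figure D2:**
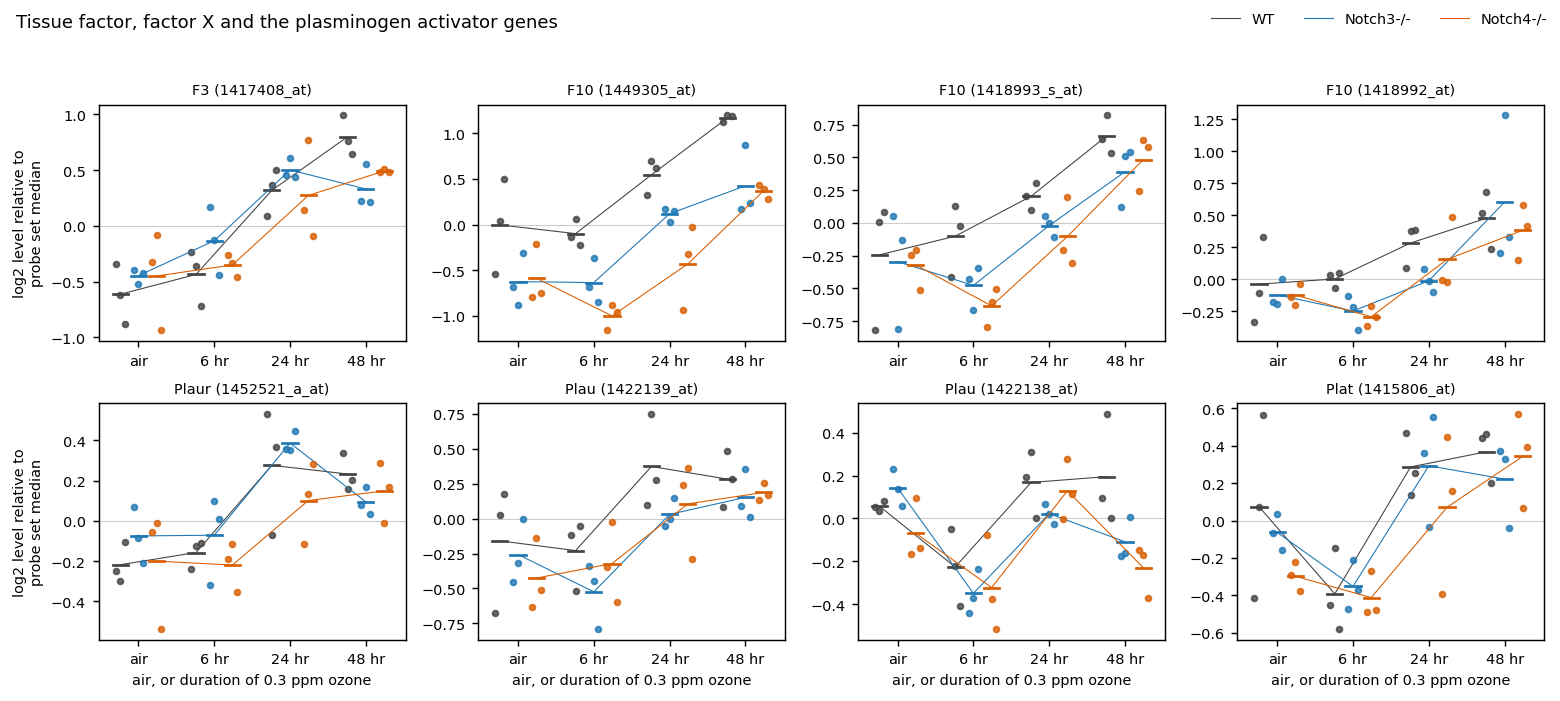
Level of each mouse (points, log2 relative to the median of the probe set) after air and after 6, 24 and 48 hr of 0.3 ppm ozone, with the mean of each group of 3 as a bar joined by lines, for *F3*, *F10*, *Plaur*, *Plau* and *Plat* 1415806_at in WT, *Notch3-/-* and *Notch4-/-* mice. The 9 *F3* points at 48 hr lie between 0.21 and 0.99, above the 9 air points between -0.94 and -0.08.

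*Plaur*, which carries urokinase on the cell surface, rose at 24 hr and was still higher at 48 hr. Its WT levels were -0.25, -0.30 and -0.11 after air, 0.53, -0.07 and 0.37 at 24 hr, and 0.33, 0.16 and 0.20 at 48 hr. In *Notch3-/-* mice they were 0.07, -0.09 and -0.21 after air, 0.36, 0.35 and 0.45 at 24 hr, and 0.08, 0.17 and 0.04 at 48 hr. In *Notch4-/-* mice they were -0.06, -0.01 and -0.54 after air, -0.11, 0.13 and 0.28 at 24 hr, and 0.29, -0.01 and 0.17 at 48 hr. WT mice at 24 and 48 hr and *Notch3-/-* mice at 24 hr were all above their air mice, and the other groups overlapped theirs. Over the genotypes the difference was 0.42 at 24 hr (SE 0.08, adjusted p = 0.002) and 0.32 at 48 hr (SE 0.08, adjusted p = 0.0077), and 0 of the 9 comparisons within a genotype passed, the closest being *Notch3-/-* at 24 hr (0.46, adjusted p = 0.069). Without *Notch4-/-* air replicates 1 and 2 the *Notch4-/-* differences were 0.64 at 24 hr (adjusted p = 0.032, against 0.30 with them) and 0.68 at 48 hr (adjusted p = 0.048, against 0.35), and both passed.

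*Plau*, which codes for urokinase, passed at 24 and 48 hr by one probe set and at 6 hr by the other, and the difference between the probe sets was not tested. Probe set 1422139_at had WT levels of -0.68, 0.03 and 0.17 after air, 0.10, 0.75 and 0.27 at 24 hr, and 0.08, 0.49 and 0.28 at 48 hr. In the knockout lines it ranged from -0.63 to -0.00 over the 6 air mice and from 0.01 to 0.36 over the 6 mice at 48 hr, which were all above the air mice. It rose over the genotypes at 24 hr (0.45, SE 0.12, adjusted p = 0.025) and 48 hr (0.49, adjusted p = 0.0066). The 24 hr call was lost without any one of *Notch3-/-* air replicate 1, *Notch4-/-* air replicates 1 or 3, *Notch4-/-* 24 hr replicate 2, WT air replicate 1 or WT 24 hr replicate 2, with adjusted p between 0.052 and 0.063.

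Probe set 1422138_at of *Plau* was the only member probe set called at 6 hr. Its levels after air and at 6 hr were 0.06, 0.04 and 0.08 against -0.05, -0.22 and -0.41 in WT, 0.23, 0.14 and 0.06 against -0.44, -0.37 and -0.24 in *Notch3-/-*, and -0.16, 0.09 and -0.14 against -0.08, -0.37 and -0.51 in *Notch4-/-*. All WT and *Notch3-/-* mice at 6 hr were below their air mice, and the *Notch4-/-* groups overlapped. It fell by 0.34 (SE 0.07, adjusted p = 0.0089), and its differences at 24 hr (0.06, adjusted p = 0.64) and 48 hr (-0.09, adjusted p = 0.50) were small. At 6 hr 1422139_at differed by -0.08 (adjusted p = 0.76).

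*Plat*, tissue-type plasminogen activator, rose at 48 hr by 1 of its 2 probe sets. Probe set 1415806_at had WT levels of -0.42, 0.07 and 0.57 after air and 0.44, 0.46 and 0.20 at 48 hr, *Notch3-/-* levels of -0.07, 0.04 and -0.16 after air and 0.37, 0.33 and -0.04 at 48 hr, and *Notch4-/-* levels of -0.29, -0.22 and -0.38 after air and 0.57, 0.07 and 0.39 at 48 hr. The groups overlapped in WT and *Notch3-/-* and were separate in *Notch4-/-*. Over the genotypes it rose by 0.41 (SE 0.11, adjusted p = 0.019), which without WT air replicate 1 was 0.33 (adjusted p = 0.057). At 6 hr it differed from air by -0.29 (adjusted p = 0.16), and from 6 to 24 hr it rose by 0.60 (adjusted p = 0.00073). Probe set 1458553_at differed by -0.04 at 48 hr (95% interval -0.20 to 0.13).

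*Clec3b*, the plasminogen-binding protein tetranectin, was lower at 48 hr of ozone. Its WT levels were 0.61, 0.88 and 0.81 after air, 0.57, 0.50 and 0.65 at 6 hr, 0.50, 0.47 and 0.40 at 24 hr, and 0.15, -0.14 and -0.48 at 48 hr. Its *Notch4-/-* levels were 0.18, -0.12 and 0.18 after air, 0.00, 0.20 and -0.09 at 6 hr, -0.31, -0.23 and -0.03 at 24 hr, and -0.78, -1.30 and -1.16 at 48 hr. Its *Notch3-/-* levels were -0.20, -0.32 and 0.18 after air, 0.28, 0.43 and 0.20 at 6 hr, -0.29, -0.54 and -0.00 at 24 hr, and -0.08, -0.37 and -0.82 at 48 hr. WT and *Notch4-/-* mice at 48 hr were all below their air mice, and the *Notch3-/-* groups overlapped. At 6 hr the 3 *Notch3-/-* mice were all above their air mice (0.42 log2, adjusted p = 0.33), and the groups of the other genotypes overlapped. Over the genotypes it fell by 0.80 at 48 hr (1.74-fold lower, SE 0.10, adjusted p = 1.5e-06), with -1.15 in *Notch4-/-* (adjusted p = 0.00037), -0.92 in WT (adjusted p = 0.0022) and -0.31 in *Notch3-/-* (adjusted p = 0.47). Under the two-way ANOVA with Tukey's test, as run here, the calls in *Notch4-/-* (adjusted p = 0.055) and WT (adjusted p = 0.24) were lost.

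*Thbd*, thrombomodulin, was lower at 48 hr. Its levels after air and at 48 hr were 0.19, 0.11 and 0.15 against 0.01, -0.16 and -0.45 in WT, 0.32, 0.11 and 0.20 against -0.18, -0.12 and -0.31 in *Notch3-/-*, and 0.05, 0.03 and -0.03 against -0.32, -0.66 and -0.40 in *Notch4-/-*. Its levels at 6 and 24 hr were -0.04, 0.18 and -0.05 and then 0.13, 0.23 and 0.17 in WT, -0.38, -0.06 and 0.15 and then -0.04, -0.01 and -0.11 in *Notch3-/-*, and -0.11, 0.05 and 0.03 and then -0.03, 0.14 and 0.13 in *Notch4-/-*. In every genotype all 48 hr mice were below all air mice, and in *Notch3-/-* so were all 24 hr mice, where the difference from air was -0.31 at 6 hr (adjusted p = 0.28) and -0.26 at 24 hr (adjusted p = 0.20). Over the genotypes the difference was -0.41 at 48 hr (SE 0.07, adjusted p = 5.3e-05), -0.06 at 24 hr (adjusted p = 0.65) and -0.36 between 24 and 48 hr (adjusted p = 0.001). Within genotypes it passed in *Notch4-/-* (-0.47, adjusted p = 0.025) and *Notch3-/-* (-0.42, adjusted p = 0.045), and WT had -0.35 (adjusted p = 0.14). The *Notch3-/-* call was lost without any 1 of its 6 mice (adjusted p between 0.065 and 0.24). The *Notch4-/-* call was lost without any 1 of its 3 air mice or 48 hr replicate 2 (adjusted p between 0.059 and 0.17), and without air replicates 1 and 2 together (-0.43, adjusted p = 0.23).

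Markers of endothelium, where *Thbd* is made, were lower at the same time. Of 10 endothelial markers 4 fell at 48 hr over the genotypes, where 12.7% of 18193 genes passed in either direction. They were *Pecam1*, *Tie1*, *Cldn5* and *Emcn* (-0.25 to -0.54), the list median was -0.34 and that of all genes was -0.00. From 24 to 48 hr, where 6.71% of all probe sets passed, 7 of 10 fell (median -0.32). The mean level of the list ranged from 0.13 to 0.25 over the WT air mice and from -0.24 to -0.03 over the WT mice at 48 hr, from -0.11 to 0.08 and from -0.34 to -0.17 in *Notch3-/-*, and from -0.08 to 0.09 and from -0.63 to -0.23 in *Notch4-/-*, so it did not overlap in any genotype. Of 6 macrophage markers 3 rose at 48 hr (*Cd68*, *Marco* and *Mrc1*), with a list median of 0.35. Of 8 fibroblast markers 1 rose (*Pdgfra*) and 1 fell (*Tcf21*), with a median of 0.00, and of 4 mesothelial and 4 neutrophil markers 0 passed. Of 5 alveolar type 1 markers 1 fell (*Rtkn2*), of 4 alveolar type 2 markers 0 passed, of 3 club cell markers 1 fell (*Cyp2f2*), of 4 liver markers 1 rose (*Alb*, 0.89) and 1 fell (*Ttr*), and of 6 skeletal muscle markers 0 passed. The mean level of the skeletal muscle list was uneven, from -0.10 to 3.40, over the 3 *Notch3-/-* air mice. These are the mice against which the ozone mice of that line are compared. The highest array of any other group was 1.15, in WT at 24 hr. In whole lung, fewer cells of a type and less RNA per cell cannot be told apart, and the part of these shifts in the member results was not tested.

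By genotype and time the counts of member probe sets called were as follows. At 48 hr 4 of 16 passed in WT, 3 higher and 1 lower (1.89% of all probe sets), 4 in *Notch3-/-*, 3 higher and 1 lower (2.46%), and 5 in *Notch4-/-*, 3 higher and 2 lower (1.75%). At 24 hr 1 passed in *Notch3-/-*, higher (2.72%), and 0 in WT (0.104%, with 5 at an unadjusted p under 0.05) and *Notch4-/-* (1.39%, with 4). At 6 hr 0 passed by limma in WT (0% of all probe sets, with 3 members at an unadjusted p under 0.05), in *Notch3-/-* (0.16%, with 4) and in *Notch4-/-* (0.00666%, with 1). *F3* and *F10* 1449305_at were the 2 members called at 48 hr in all 3 genotypes. Under the two-way ANOVA with Tukey's test over all 12 groups, as run here, of all these calls within a genotype only that on *F3* in WT at 48 hr held.

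Some other differences over the genotypes or exposures missed the threshold and passed without 1 mouse. *Plat* 1415806_at at 24 hr (0.31) did so without *Notch4-/-* 24 hr replicate 1 (0.39, adjusted p = 0.03) or WT air replicate 3 (0.39, adjusted p = 0.034), and at 6 hr (-0.29) without WT air replicate 1 (-0.37, adjusted p = 0.045). *Tfpi* 1451790_a_at at 6 hr (-0.21) passed without *Notch3-/-* 6 hr replicate 2 (-0.28, adjusted p = 0.046), and 1451791_at at 24 hr (-0.17) without WT air replicate 1 (-0.21, adjusted p = 0.032). *Tfpi* 1438530_at from 6 to 24 hr (-0.16) passed without *Notch4-/-* 24 hr replicate 2 (-0.20, adjusted p = 0.046). *F10* 1418992_at from 6 to 24 hr (0.32) passed without 24 hr replicate 1 of *Notch4-/-* or WT (0.35 in each case), and from 24 to 48 hr (0.35) without *Notch3-/-* 48 hr replicate 1 or 3, *Notch4-/-* 24 hr replicate 3 or *Notch4-/-* 48 hr replicate 1 (0.39 to 0.41). *Plau* 1422138_at between *Notch4-/-* and WT (-0.17) passed without *Notch4-/-* 6 hr replicate 1 (-0.20, adjusted p = 0.046).

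**Figure D3:**
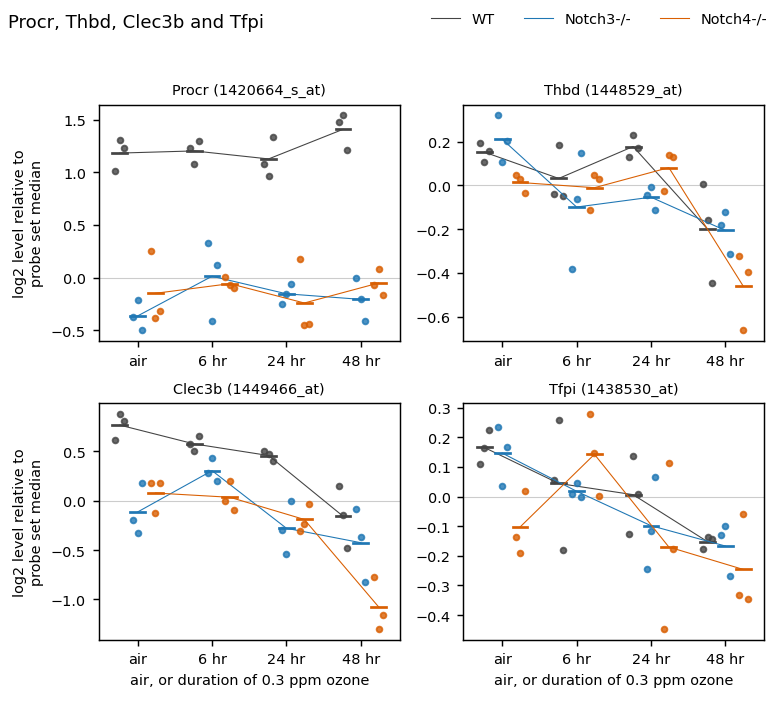
Level of each mouse (points, log2 relative to the median of the probe set) and group means of 3 mice (bars joined by lines) for *Procr*, *Thbd*, *Clec3b* and *Tfpi* 1438530_at after air and 6, 24 and 48 hr of ozone. The 12 WT points of *Procr* lie between 0.96 and 1.54 and the 24 knockout points between -0.50 and 0.33.

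*Procr*, the endothelial protein C receptor, differed by genotype and not detectably by ozone. After air its levels were 1.01, 1.31 and 1.23 in WT, -0.38, -0.22 and -0.50 in *Notch3-/-*, and 0.25, -0.38 and -0.31 in *Notch4-/-*. At 48 hr they were 1.47, 1.54 and 1.21 in WT, -0.00, -0.20 and -0.42 in *Notch3-/-*, and -0.07, 0.08 and -0.16 in *Notch4-/-*. Over air and the 3 ozone times the 12 WT mice ranged from 0.96 to 1.54 with a median of 1.23, the 12 *Notch3-/-* mice from -0.50 to 0.33 with a median of -0.21, and the 12 *Notch4-/-* mice from -0.45 to 0.25 with a median of -0.09. No knockout mouse reached the lowest WT mouse. In air *Procr* was 2.92-fold lower in *Notch3-/-* (-1.55 log2, SE 0.17, adjusted p = 3.2e-06) and 2.52-fold lower in *Notch4-/-* (-1.33, SE 0.17, adjusted p = 4.7e-05). Averaged over exposures the differences were -1.41 (SE 0.09, adjusted p = 2.1e-12) and -1.36 (SE 0.09, adjusted p = 6.5e-12), and without *Notch4-/-* air replicates 1 and 2 the latter was -1.40.

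*Clec3b* was also lower in both knockout lines. In air it was lower in *Notch3-/-* by 0.88 log2 (-0.88, SE 0.17, adjusted p = 0.0082), a call lost without *Notch3-/-* air replicate 1 (adjusted p = 0.055) or 2 (adjusted p = 0.082) or WT air replicate 2 (adjusted p = 0.065) or 3 (adjusted p = 0.052), and in *Notch4-/-* the difference was -0.69 (adjusted p = 0.071). The *Notch4-/-* difference in air passed with array weights (-0.68, adjusted p = 0.0019) and after another quantile normalization (-0.85, adjusted p = 0.019). It also passed with adjustment over all comparisons (adjusted p = 0.029) and under no other alternative. Over exposures the differences were -0.54 (SE 0.09, adjusted p = 8.3e-05) and -0.70 (SE 0.09, adjusted p = 2e-06). Over the 12 mice of each genotype *Clec3b* ranged from -0.48 to 0.88 in WT, from -0.82 to 0.43 in *Notch3-/-* and from -1.30 to 0.20 in *Notch4-/-*, so the genotypes overlapped once the ozone times were included.

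*F10* passed as lower in the knockout lines by 1 of its 3 probe sets, and the other 2 differed in the same direction. Over exposures 1449305_at differed by -0.58 in *Notch3-/-* (SE 0.11, adjusted p = 0.00081) and by -0.81 in *Notch4-/-* (SE 0.11, adjusted p = 1.1e-05), while 1418993_s_at differed by -0.23 (adjusted p = 0.24) and -0.27 (adjusted p = 0.12) and 1418992_at by -0.13 (adjusted p = 0.59) and -0.15 (adjusted p = 0.44). Without WT air replicate 1 the differences of 1418993_s_at were -0.30 (adjusted p = 0.048) and -0.35 (adjusted p = 0.021) and passed, as did that in *Notch4-/-* with array weights (-0.31, adjusted p = 0.031). The differences between probe sets were not tested. In air 1449305_at differed by -0.62 (adjusted p = 0.40) and -0.58 (adjusted p = 0.46). With array weights these differences were -0.82 (adjusted p = 0.029) and -0.87 (adjusted p = 0.0036) and passed.

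In air 2 of 16 member probe sets passed in *Notch3-/-* (0.486% of all probe sets) and 1 in *Notch4-/-* (0.482%), all lower. Over exposures 3 passed in *Notch3-/-* (5.68%) and 3 in *Notch4-/-* (5.76%), all lower, and the 3 were *Procr*, *Clec3b* and *F10* 1449305_at in each line. Both lines were compared with the same WT mice. *F3* differed from WT by 0.05 in *Notch3-/-* (95% interval -0.16 to 0.25) and by -0.03 in *Notch4-/-* (95% interval -0.23 to 0.18). *Plaur* differed by 0.05 (95% interval -0.09 to 0.19) and -0.08 (95% interval -0.22 to 0.07), and *Thbd* by -0.08 (95% interval -0.19 to 0.04) and -0.13 (95% interval -0.25 to -0.02, adjusted p = 0.19).

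**Figure D4:**
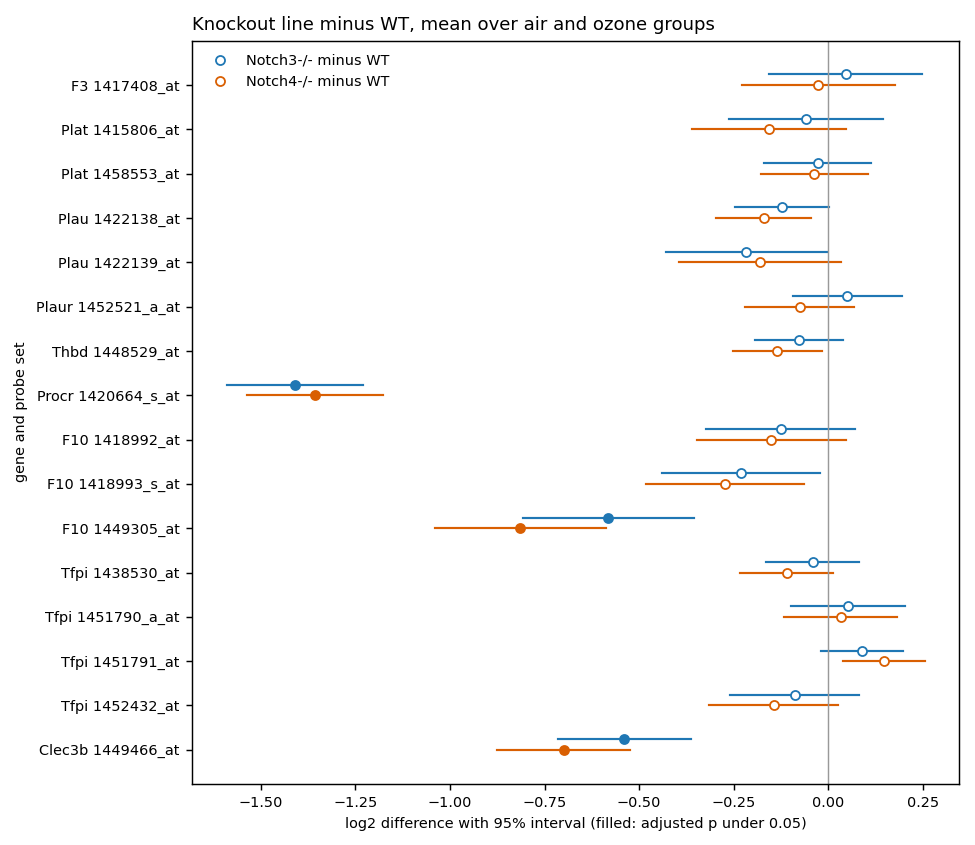
Log2 difference between each knockout line and WT, averaged over the 4 exposure groups of a genotype, for each member probe set, with the 95% interval of the limma fit. Filled circles have an adjusted p under 0.05. *Procr* lies farthest to the left in both lines (-1.41 and -1.36), followed by *F10* 1449305_at and *Clec3b*.

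Markers of other cells also differed between the lines and WT over exposures, where 6.97% and 6.67% of 18193 genes passed. Of 10 endothelial markers, the cells in which *Procr* is known, 3 were lower in each line (*Tek*, *Tie1* and *Esam*), with list medians of -0.19 in *Notch3-/-* and -0.17 in *Notch4-/-*, and the largest of these differences was -0.39. All 4 neutrophil markers measured were higher in both lines, with medians of 1.55 and 0.95 (*S100a8* by 2.09 and 1.32). Of 8 fibroblast markers 0 passed in *Notch3-/-* and 1 in *Notch4-/-* (*Tcf21*, lower), and of 4 mesothelial markers 0 passed. Of 6 macrophage markers 2 passed in *Notch3-/-* (*Cd68* higher, *Marco* lower) and 0 in *Notch4-/-*, and of 5 alveolar type 1 markers 3 and 2. In WT, *Notch3-/-* and *Notch4-/-* the mean level of the alveolar type 1 list was 0.16, 0.08 and -0.03 in air and 0.12, -0.07 and -0.12 at 6 hr. It was 0.15, -0.09 and 0.06 at 24 hr and -0.02, 0.04 and -0.07 at 48 hr. Of the alveolar type 2, club cell, liver and skeletal muscle markers 0 passed. The *Notch3-/-* air mice with the uneven skeletal muscle level given above are among the mice compared. The part of these shifts in the *Procr*, *Clec3b* and *F10* differences was not tested.

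The ozone response of the members did not pass a test of difference between a knockout line and WT. Of 16 probe sets 0 passed by limma in *Notch3-/-* against WT at 6 hr (0.00888% of all probe sets, with 1 member at an unadjusted p under 0.05), 24 hr (0.00444%, with 0) and 48 hr (0.00222%, with 3), and 0 in *Notch4-/-* at 6 hr (0%, with 1), 24 hr (0%, with 0) and 48 hr (0.00222%, with 0). The widest apart at 48 hr were *F3*, whose rise was smaller in *Notch3-/-* than in WT by 0.64 log2 (-0.64, 95% interval -1.21 to -0.07, adjusted p = 1), and *Clec3b*, whose fall was smaller in *Notch3-/-* (0.61, 95% interval 0.11 to 1.11, adjusted p = 1). For *Procr* the responses at 48 hr differed by -0.07 in *Notch3-/-* (95% interval -0.57 to 0.44) and -0.13 in *Notch4-/-* (95% interval -0.63 to 0.38). These intervals leave room for differences as large as many of the responses.

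Other genes of the same systems were read from 6 lists, with 1 probe set for each gene. In this reading 2.93% of 18193 genes passed at 6 hr over the genotypes, 6.44% at 24 hr and 12.7% at 48 hr, and at 6 hr 0 genes of these lists passed. Of 17 coagulation factors and cofactors 3 passed at 24 hr and 5 at 48 hr (list median -0.00). *F7*, the factor that tissue factor binds, rose by 0.85 at 48 hr (SE 0.11, adjusted p = 1.8e-06). The fibrinogen chains *Fgg* (1.10, SE 0.24, adjusted p = 0.0026) and *Fga* (0.30, adjusted p = 0.016) and *Kng1*, kininogen (0.60, adjusted p = 0.00048), also rose at 48 hr, and *Vkorc1*, the vitamin K reductase, fell by 0.17 (adjusted p = 0.043). Within genotypes *Fgg* passed in *Notch3-/-* (1.77, adjusted p = 0.017), with 0.75 in WT (adjusted p = 0.59) and 0.78 in *Notch4-/-* (adjusted p = 0.46). Its 48 hr levels were uneven, with 2.02, 2.04 and -0.03 in *Notch3-/-* and -0.16, 1.75 and 0.90 in *Notch4-/-*. *Fga* passed in *Notch3-/-* (0.54, adjusted p = 0.037), with 0.34 in *Notch4-/-* (adjusted p = 0.28) and 0.02 in WT (adjusted p = 0.99). Of the 4 liver markers *Alb* rose by 0.89 at 48 hr (adjusted p = 4.7e-05), *Ttr* fell by 0.18 (adjusted p = 0.043) and the others did not pass.

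Of 8 coagulation inhibitors and protein C pathway genes 2 rose at 24 hr and 3 at 48 hr (median 0.18). *Tfpi2*, a Kunitz-type protease inhibitor, rose by 1.31 at 24 hr (adjusted p = 2.1e-07) and 1.30 at 48 hr (SE 0.13, adjusted p = 6.9e-08), *Serpina10*, the protein Z-dependent inhibitor of factor Xa, by 0.40 at 48 hr (adjusted p = 0.04), and *Serpind1*, heparin cofactor II, by 0.32 (adjusted p = 0.032). Of 6 genes of plasminogen, its receptors and binding proteins 1 rose at 48 hr (median 0.10), *S100a10*, which with annexin A2 binds plasminogen at the cell surface (0.42, SE 0.09, adjusted p = 0.0015). A second probe set of *S100a10* (0.29, adjusted p = 0.0049) and one of *Anxa2* that does not stand for the gene here (0.21, adjusted p = 0.0044) rose as well. Of the 5 inhibitors of fibrinolysis 2 were measured by a probe set with 1 symbol, and the others were not analysed here. *Serpinb2*, plasminogen activator inhibitor 2, rose at 48 hr by 1.51 (SE 0.32, adjusted p = 0.0014), with 2.54 in *Notch4-/-* (adjusted p = 0.012), 1.83 in WT (adjusted p = 0.089) and 0.18 in *Notch3-/-* (adjusted p = 0.95). All *Notch4-/-* mice at 48 hr (median 1.62, highest 3.66) were above their air mice (-0.20, -0.34 and -0.20). Its levels after air and at 48 hr were -0.84, 0.93 and 0.88 against 1.89, 1.43 and 3.14 in WT, and -0.41, 0.08 and 0.99 against 0.51, 0.70 and -0.03 in *Notch3-/-*, where the groups overlapped. *Serpinf2*, the plasmin inhibitor, differed by -0.09 (adjusted p = 0.53). Of the 3 protease-activated receptors and 8 platelet genes measured, 0 passed at any ozone time, with medians at 48 hr of -0.03 and -0.21. *F2rl1* of the receptor list and *Gp1ba* of the platelet list had no probe set with 1 symbol and were not analysed here.

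Between the knockout lines and WT over exposures, where 6.97% and 6.67% of 18193 genes passed, *F7* was higher in *Notch3-/-* (0.68, adjusted p = 8.3e-06) and in *Notch4-/-* (0.56, adjusted p = 0.00016). The other genes called were *F13a1* (0.61, adjusted p = 0.0093), *Serpind1* (0.42, adjusted p = 0.0016) and *Treml1* (0.39, adjusted p = 0.018), higher in *Notch3-/-*, and *F11* (0.23, adjusted p = 0.043), *Pf4* (0.69, adjusted p = 0.0025) and *Ppbp* (0.75, adjusted p = 0.015), higher in *Notch4-/-*. *Treml1*, *Pf4* and *Ppbp* are platelet genes, and 0 genes of the plasminogen receptor, fibrinolysis inhibitor and protease-activated receptor lists passed.

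**Figure D5:**
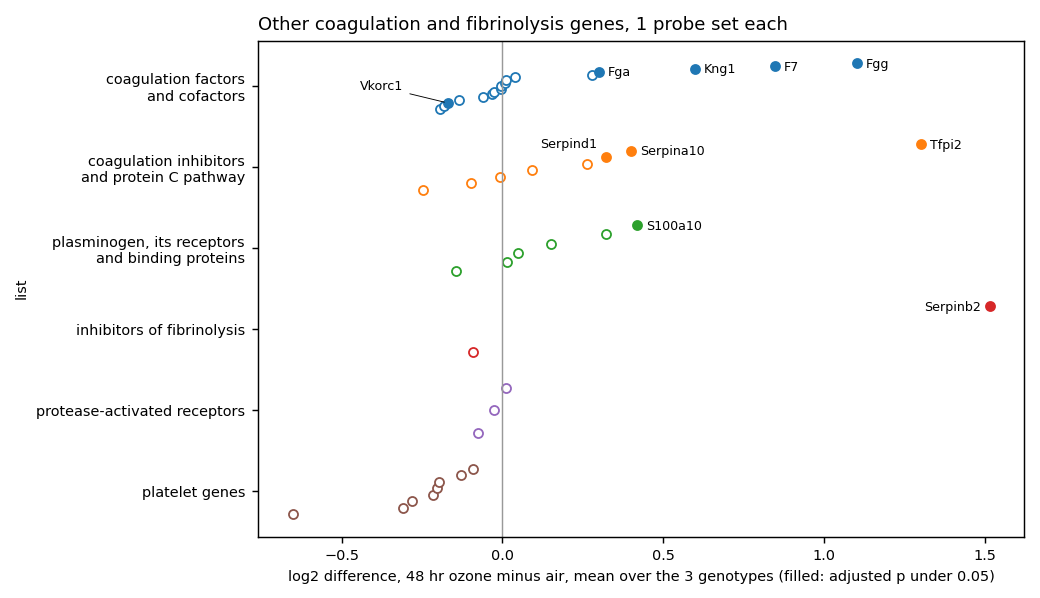
Log2 difference at 48 hr of ozone against air, as the mean over the 3 genotypes, for the genes of 6 coagulation and fibrinolysis lists, 1 probe set for each gene (points, spread vertically within a list for legibility). Filled and named points have an adjusted p under 0.05. *Serpinb2* (1.51), *Tfpi2* (1.30) and *Fgg* (1.10) lie farthest to the right.

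Likeness to other genes was described by Pearson's correlation over the 12 group means of genotype and exposure, with no test. The genes most like *F3* were *Ctps* (0.955), *Wdr46* (0.952) and *Rgs16* (0.95), and those most like *Plaur* were *Abhd13* (0.963), *Cdv3* (0.957) and *Nup54* (0.955). *F10* 1418993_s_at ran with *Slc6a14* (0.962), *Itgb6* (0.953) and *Krt7* (0.948), *F10* 1449305_at with *Rai14* (0.94), *Slc6a14* (0.933) and *Cstf1* (0.927), and *F10* 1418992_at with *Fn1* (0.966), *Ergic1* (0.965) and *Sh2d4a* (0.965). For *Thbd* they were *Rusc2* (0.956), *Mprip* (0.955) and *She* (0.954), and for *Clec3b* they were *Slc48a1* (0.945), *Slc29a1* (0.944) and *Csnk1g2* (0.937). For *Plat* 1415806_at they were *Dcun1d1* (0.955), *Map3k20* (0.954) and *Spryd4* (0.95), for *Plau* 1422139_at *Mtmr3* (0.967), *Wsb2* (0.941) and *Atl3* (0.939), for *Plau* 1422138_at *Csnk1a1* (0.919), *Ctbp2* (0.917) and *Sox18* (0.908), and for *Tfpi* 1438530_at *Tmx3* (0.967), *Ube2v2* (0.962) and *Atp2c1* (0.958). Among the members the 3 *F10* probe sets correlated at 0.857 to 0.948, *F3* with *Plaur* at 0.909 and *Plat* 1415806_at with *Plau* 1422139_at at 0.891. With 12 means, correlations of this size describe the shape over genotypes and times together and no more.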

How the data were processed

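Left lung RNA was measured in 36 mice, 1 on each Affymetrix mouse whole-genome array. The authors ran RMA (robust multiarray average) in the GeneSpring GX software, a method with background correction, quantile normalization and a log2 scale. The deposited log2 values had, in addition, a median of 0 over the arrays at every probe set. This centring was seen in the values (largest absolute median 5e-07) and is not described in the methods. Brightness and detection therefore cannot be read from them, and the number of arrays limits the precision (median SE 0.139 log2 within a genotype, 0.0802 for ozone over the genotypes, 0.0695 for genotype over exposures and 0.196 for a difference between responses). Array medians ran from -0.028 to 0.028 log2 and array SDs from 0.164 to 0.426.

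Of 45101 probe sets, 64 Affymetrix controls were left out. Of the other 45037, the platform annotation names 1 gene for 34945, several for 932 and none for 9160, and 34741 were matched to RefSeq by gene ID. Group means were fitted with limma 3.58.1 (lmFit and eBayes) in R 4.3.3 to all 36 arrays, with Benjamini-Hochberg adjustment over all 45037 probe sets of a comparison and adjusted p under 0.05 as the threshold. Every p in the results is from this fit, except where its sentence names an alternative, such as the ANOVA, array weights or mice left out. The labels name each array as a replicate of its group. The two-way ANOVA with Tukey's test, named in the study's methods, was run as an alternative. Tukey's step was taken over all 12 groups, and its p were then adjusted by Benjamini-Hochberg over all probe sets. The methods name both steps but not how they were joined, so the study's own run may differ. Tukey's step covered only differences between single groups, and differences averaged over genotypes or exposures had the ordinary t-test of that ANOVA. Further alternatives were another quantile normalization, array weights, centring on the array median, the replicate number as a block, only the arrays of a genotype, only probe sets with 1 symbol, adjustment over all comparisons and leaving out mice. Background correction, a filter on dim probe sets and scan batches were not tested, since scanner files were not used here. The fit was tested on simulated data with independent normal noise and 200 changed probe sets. Of changes of 0.4 log2 it recovered 62.7% at 48 hr over the genotypes and 11.9% in WT at 48 hr. Of changes of 0.8 log2 it recovered 94% and 71.6%, and 8 of 178 and 5 of 125 calls were false. In the data 4811 and 850 probe sets passed in these comparisons, and the adjustment depends on how many change. The shares recovered therefore describe the simulated setting only.

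All member probe sets are named. In the other lists the genes named are those that passed in an ozone comparison over the genotypes or a genotype comparison over exposures, up to 6 a list, and likeness takes the 3 most correlated genes of each member called. For other genes with several probe sets, the one read is that with the most specific suffix or, among equals, the lowest number. The members, lists and tests were chosen with earlier results of these data known.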

Additional observations from a re-analysis of the deposited data

How the results depend on the processing

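Of 50 calls on member probe sets, 30 held under every alternative run and 20 were lost under at least 1. Of 1120 values under an alternative, 0 changed direction. The calls at 48 hr over the genotypes on *F3*, *F10*, *Clec3b*, *Thbd*, *Plau*, *Plaur* and *Tfpi* and all 4 *Procr* calls held throughout. Tukey's step did not apply to differences averaged over genotypes or exposures, for which the ANOVA alternative used an ordinary t-test. How far those calls hold under it is therefore not comparable with calls within a genotype. Counts of the 16 member probe sets called by limma moved by more than 1.5 times as follows, and the cause was not tested. Under the ANOVA with Tukey's test they were 1 for *Notch3-/-* against WT in air (2 by limma), 0 for *Notch3-/-* at 24 hr (1), 0 for *Notch3-/-* at 48 hr (4), 0 for *Notch4-/-* at 48 hr (5) and 1 for WT at 48 hr (4). With array weights they were 3 for *Notch3-/-* at 24 hr, 6 for *Notch4-/-* against WT in air (1), 2 for *Notch4-/-* at 24 hr (0), 1 for *Notch4-/-* at 6 hr (0), 3 at 6 hr over the genotypes (1) and 2 for WT at 24 hr (0). After another quantile normalization they were 2 for *Notch3-/-* at 24 hr, 2 for *Notch4-/-* against WT in air, 1 for *Notch4-/-* at 24 hr and 2 for *Notch4-/-* at 48 hr. With only the arrays of the genotype they were 2 for *Notch3-/-* and 1 for *Notch4-/-* at 48 hr. With adjustment over all comparisons they were 1 for *Notch3-/-* at 6 hr (0), 2 for *Notch4-/-* against WT in air and 1 for WT at 24 hr. With only probe sets of 1 symbol they were 1 for *Notch4-/-* and 1 for WT at 24 hr, and centring gave 1 for WT at 24 hr. Without *Notch4-/-* air replicates 1 and 2 they were 2 for *Notch4-/-* at 24 hr and 3 at 48 hr. Leaving out 1 mouse at a time gave 1 to 2 for *Notch3-/-* against WT in air, 0 to 3 for *Notch3-/-* at 48 hr, 0 to 1 for *Notch4-/-* at 24 hr, 1 to 4 for *Notch4-/-* at 48 hr, 2 to 5 at 24 hr and 1 to 2 at 6 hr over the genotypes, and 0 to 1 for WT at 24 hr.

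The groups share replicate numbers. Deviations from the group means correlated at a median of 0.07 over 198 pairs of mice with the same number (-0.51 to 0.62). Over 396 pairs with different numbers the median was -0.05 (-0.61 to 0.50). Whether the numbers pair the mice was not tested. With the replicate block the counts were 2 for *Notch3-/-*, 1 for *Notch4-/-* and 1 for WT at 24 hr, and the *Thbd* call in *Notch3-/-* at 48 hr was lost (adjusted p = 0.054). Centred values leave signal over background unread, which limits what can be said of dim genes.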
